A study of Mus musculus with 31 samples.

Results

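The comparison described here set the medial prefrontal cortex (mPFC) of DBA2/J (DBA) mice against that of C57BL/6J (C57) mice, both raised under control handling. It uses 7 of the 31 one-colour Agilent arrays of the study: 3 labelled C57 control (C57 controls 1, 2 and 3) and 4 labelled DBA control (DBA controls 1 to 4), chosen by sample title. All were labelled as females of 12 weeks, and 1 array was hybridised per sample. In control handling, pups were lifted out once a day in the first days of life and put back with their own mother. The other arrays of the study hold mice that changed mothers repeatedly as pups, and another region, the nucleus accumbens (NAc), of both strains. The labels do not say whether arrays of 1 group came from separate animals, so p-values measure the spread between these samples, which may be technical.

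C57 and DBA are inbred strains that differ at a very large number of sequence positions, so gene differences between them include changes in transcript level, copy number and splicing. They can also include sequence differences under a probe, which change hybridisation with no change in RNA level. The strains are often compared in studies of reward and drug response, because they differ in how they react to stimulants and to stress. In the mPFC, a cortical area of excitatory projection neurons, interneurons and glia, bulk RNA averages over these cells. In such samples, fewer cells of a type and less RNA per cell cannot be told apart.

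Several arrays stood apart from their labels, which bears on every value below. DBA controls 2 and 4 differed by little more than repeated spots of 1 array, with a spread of differences 1.46 times that of repeated spots against 5.80 times for DBA controls 3 and 4, and were averaged to 1 sample (DBA control 2+4). DBA control 1 had the C57 pattern of strain markers: the score of Glo1 and Gabra2 minus Gpnmb was 5.35, against 5.67 to 6.23 in the C57 controls and 11.49 and 11.67 in DBA controls 2+4 and 3. It also differed from its label of female: Xist, the RNA of the silenced X chromosome, was at -5.87 there and between 0.21 and 0.65 in the other mPFC controls. The Y-linked genes Ddx3y and Eif2s3y were at 1.21 and 1.92 in DBA control 1 and at -6.56 or lower and -5.11 or lower on the other 30 arrays, of which 5 had Eif2s3y well above background. The 2 probes of Uty, also Y-linked, were at -3.93 and -3.83 in DBA control 1 and at -6.16 or lower and -6.70 or lower elsewhere. The probe of Kdm5d did not follow them: it was at -5.59 in DBA control 1, -5.49 in C57 control 2 and up to 6.15 on another array. C57 control 3 had striatal markers: the 25 striatal genes averaged 4.10 there, against 0.59 and 1.82 in C57 controls 1 and 2, 2.23 in DBA control 1, and 0.41 and 0.49 in DBA controls 2+4 and 3. Between 68.8% and 70.8% of probes were well above background on the C57 arrays, 74.7% or more on DBA arrays 2 to 4 and 81.9% on DBA array 1. All C57 mPFC arrays lay on 1 slide and all DBA mPFC arrays on another, and the slides were scanned on different days, so strain and slide cannot be told apart in the comparison as labelled. DBA control 1, with C57 markers on the DBA slide, was therefore set beside each result; its difference from its slide-mates combines strain markers, sex and the sample itself, which cannot be told apart.

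Levels here are log2 signal minus the 75th percentile of the array, and levels of different genes are not compared. A feature (a gene, or an unnamed probe) was called when limma's Benjamini-Hochberg adjusted p over all 30165 features was under 0.05. With the samples as labelled, 7358 features were called (24.4%), 4820 of them higher in DBA (16%) and 2538 lower (8.41%). This count rests on assigning arrays to samples by the deposited value table: with scanner files as listed it was 251. With array weights it was 13056. All 3 DBA samples lay outside the range of the 3 C57 samples in 13370 features (44.3%), above it in 27.8% and below it in 16.6%. The split between higher and lower moved with the scaling: 65.5% of calls were higher in DBA as reported, 54.9% after quantile normalization, 53.9% on the probes of the deposited value table and 40.7% after normexp background correction, which called 2918. Without DBA control 3 the count was 4344.

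The 16 named genes of largest difference in the comparison as labelled were of different kinds. Stab2, a scavenger receptor of sinusoidal endothelium, was at -4.23, -4.10 and -4.93 in the C57 controls, -3.34 in DBA control 1, 1.22 in DBA control 2+4 and 1.61 in DBA control 3. The DBA samples were above the C57 samples, but DBA control 1 lay close to them. The labelled difference was 4.25 ± 1.20 (SE, limma adjusted p = 0.0133), and it was no longer called without DBA control 3 (adjusted p = 0.0862), without DBA control 2+4 (0.0687) or after normexp (0.0706). Ccr6, a chemokine receptor of lymphocytes, and Mael, a germline protein of the piRNA pathway, showed the same order of samples, with DBA control 1 at -4.20 and -5.84 against 0.16 and -2.27 in DBA control 2+4. Syt10, a calcium sensor of vesicle release, was at -3.48 to -2.82 in the C57 controls, -0.96 in DBA control 1, and 1.24 and 0.78 in DBA controls 2+4 and 3, so that DBA control 1 lay between the groups. Mc1r, the melanocortin receptor of pigment cells, was called on a single sample: it stood at 3.84 in DBA control 3, against -5.37 in DBA control 2+4 and -5.26 in DBA control 1. Among the genes lower in DBA, Acyp2, an acylphosphatase, was at 1.43, 1.68 and 1.81 in the C57 controls, 0.85 in DBA control 1, and -4.25 and -4.03 in DBA controls 2+4 and 3. Zar1, an oocyte RNA-binding protein, and Spint1, a protease inhibitor of epithelia, varied widely among the C57 controls (-4.10 to -0.83 and -2.95 to 0.35). The probes used for both were not well above background in DBA arrays 2 to 4. Another Spint1 probe was well above background on all 4 DBA arrays and differed by -1.59 without DBA control 1.

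Setting DBA control 1 apart gave 3 comparisons: DBA controls 2+4 and 3 against C57, DBA control 1 against C57, and DBA controls 2+4 and 3 against DBA control 1, the last within 1 slide. They share samples and come from 1 fit, in which the lone sample is assumed to vary like the other groups. DBA controls 2+4 and 3 differed from C57 in 6517 features (21.6%), 4278 higher (14.2%) and 2239 lower (7.42%). DBA control 1 differed from C57 in 2283 (7.57%), 1242 higher (4.12%) and 1041 lower (3.45%), and DBA controls 2+4 and 3 differed from DBA control 1 in 155 (0.514%), 76 higher (0.252%) and 79 lower (0.262%). These counts leaned on single samples: the first was 3145 without DBA control 2+4 and 1993 without DBA control 3, the second 1512 without C57 control 2 and 1189 without C57 control 3, and the third 7 without DBA control 2+4 and 9 without DBA control 3. Each called feature was then placed by where DBA control 1 lay on the way from the C57 mean (0) to the mean of DBA controls 2+4 and 3 (1). A place of 0.25 or below was termed near C57, and 0.75 or above near the slide-mates. Neither term had an outer limit, here or in the NAc below. Near C57 thus also holds features in which DBA control 1 lay beyond C57, on the side away from its slide-mates. Of the 6517 features, 1130 (17.3%) were near C57, 3365 (51.6%) near the slide-mates and 2022 (31%) between. Over all 30165 features, called or not, 30.5% were near C57 and 51.2% near the slide-mates, so the share near the slide-mates was at the background and the share near C57 below it. With a single limit of 0.5, 30.3% lay nearer C57. Of the 7358 features called as labelled, 5.1% were near C57 and 69.3% near the slide-mates, shares that DBA control 1 itself helped to set.

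**Figure D1:**
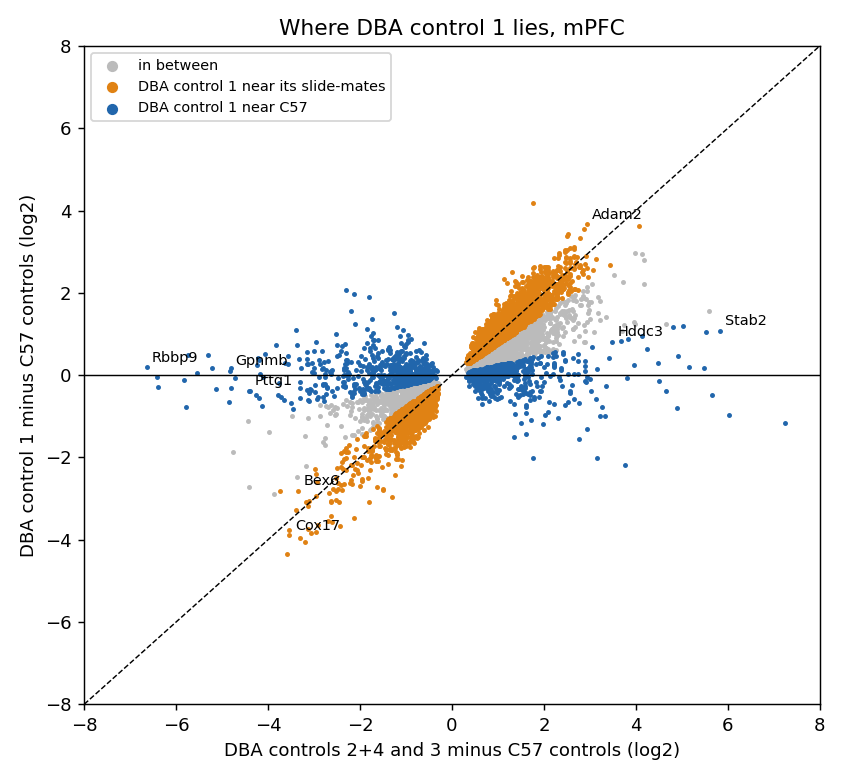
Each point is 1 of the 6517 features called between DBA controls 2+4 and 3 and the C57 controls; the horizontal axis is that log2 difference and the vertical axis the log2 difference of DBA control 1 from the C57 controls. Points on the horizontal line have DBA control 1 at the C57 mean (Rbbp9, Gpnmb), and points on the dashed diagonal have it level with its slide-mates (Cox17, Bex6).

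The place of DBA control 1 changed with the size of the difference. Among the 2749 features that differed by 0.5 to 1, 15.1% were near C57 and 53.1% near the slide-mates. Among the 140 that differed by 3 or more, 65.7% were near C57 and 12.1% near the slide-mates. The features near the slide-mates and higher in DBA were dim, with a median level of -3.88 against -1.28 for all features tested, and 17.7% of them were not well above background on any C57 mPFC array, against 5.6% of all features. Those near the slide-mates and lower in DBA had a median level of 0.84, and 0.198% were not above background on the C57 arrays. Features near C57 had a median level of -0.81, and 3.36% were not above background on the C57 arrays. By direction, these values were -0.78 and 6.99% for the higher ones and -0.81 and 0.166% for the lower ones. Unnamed probes were also common near the slide-mates: 44.9% of these features carried a named gene, against 56.3% near C57 and 55.3% of all features.

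**Figure D2:**
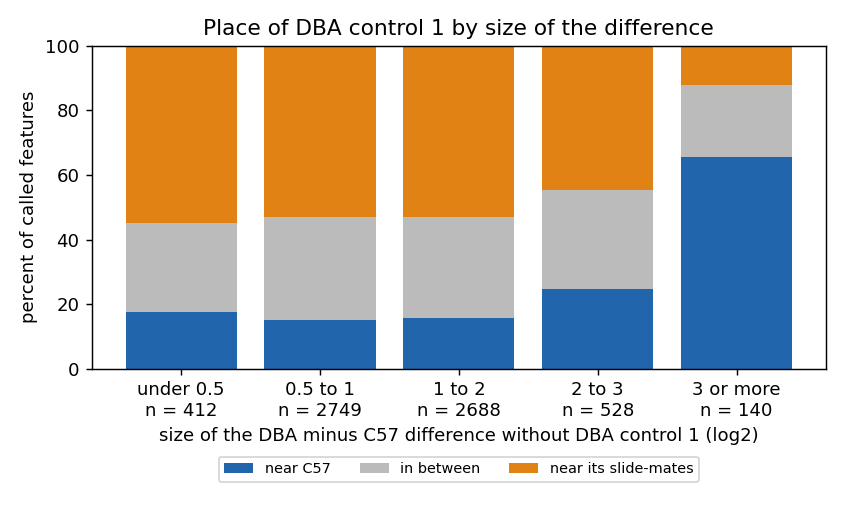
Bars divide the features called between DBA controls 2+4 and 3 and the C57 controls by the place of DBA control 1, as a percentage within each class of absolute log2 difference, with the number of features under each bar. The share near C57 is 15.1% in the class from 0.5 to 1 and 65.7% in the class of 3 or more.

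A set of 123 features, 74 of them named genes, was near C57 and was also called within the DBA slide in the same direction. These genes were chosen by their values in these samples, and their mPFC levels are given as a description. In many of them DBA control 1 lay beyond the C57 mean, on the side away from its slide-mates, and in part of these apart from both groups. The lowest places, in genes outside the naming rule, were -1.28 for H2bc1, -1.15 for Mcpt2 and -1.12 for Prune2. The call within the slide favours such genes. Hdc, an example outside the naming rule, was at -4.26 to -3.67 in the C57 controls and -2.03 in DBA control 1. Its level was -5.47 and -6.79 in DBA controls 2+4 and 3. Of the 74, 45 were lower and 29 higher in DBA controls 2+4 and 3 than in C57, and 28 of the 74 were called in the comparison as labelled. Largest of all was Rbbp9, a serine hydrolase named for binding the retinoblastoma protein. Its level was 1.37, 1.46 and 1.52 in the C57 controls and 1.64 in DBA control 1, against -5.25 and -5.14 in DBA controls 2+4 and 3. The difference without DBA control 1 was -6.64 ± 1.04 (SE), and DBA control 1 sat within the C57 side, 0.19 above the C57 mean. Another Rbbp9 probe differed by 0.84, in the opposite direction. Pttg1, or securin, the inhibitor of separase that holds sister chromatids together, was at 4.52, 4.77 and 4.35 in the C57 controls and 4.17 in DBA control 1. It was at 0.32 in DBA control 2+4 and -0.02 in DBA control 3, a difference of -4.40 ± 0.59 (SE) from C57, and another probe differed by -2.81. The probe used for Serpina3f, a member of the mouse antichymotrypsin cluster, was not well above background in any C57 control (-7.02 to -5.69) or in DBA control 1 (-7.18). In DBA controls 2+4 and 3 this probe was at -0.92 and -2.05, at least 19.1-fold higher than in C57. Another Serpina3f probe, above background on 2 of the 3 C57 arrays, differed by 0.99. Such bounds set the brighter group's mean against the lowest signal that still counted as well above background on the dim arrays. They hold for the signal scale used here and not after normexp, where the log2 difference of Serpina3f without DBA control 1 was 1.84. Hddc3, a hydrolase of the stringent-response alarmone family, was at -2.37, -2.24 and -2.08 in the C57 controls, -1.42 in DBA control 1, and 1.18 and 1.33 in DBA controls 2+4 and 3. Its difference was 3.49 ± 0.45 (SE), and DBA control 1 was just inside the limit for near C57, at 0.23.

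The sequences just upstream of these 4 genes are shown because, within this set, they had among the largest differences from C57 without DBA control 1, in both directions. They are the 250 bases before each RefSeq gene start in GRCm38.p6, whose reference mouse is the C57 strain, and so show the C57 version. Capitals mark a match to any of 3 motifs on either strand. The TATA box was searched as TATAAA. The box bound by the factor NF-Y was searched as CCAAT. The box bound by the factor Sp1 was searched as GGGCGG.
Rbbp9: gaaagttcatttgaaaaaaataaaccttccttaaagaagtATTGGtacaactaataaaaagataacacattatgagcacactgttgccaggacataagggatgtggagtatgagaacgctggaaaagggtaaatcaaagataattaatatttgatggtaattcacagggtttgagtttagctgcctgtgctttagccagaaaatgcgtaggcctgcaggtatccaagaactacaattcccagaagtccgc
Pttg1: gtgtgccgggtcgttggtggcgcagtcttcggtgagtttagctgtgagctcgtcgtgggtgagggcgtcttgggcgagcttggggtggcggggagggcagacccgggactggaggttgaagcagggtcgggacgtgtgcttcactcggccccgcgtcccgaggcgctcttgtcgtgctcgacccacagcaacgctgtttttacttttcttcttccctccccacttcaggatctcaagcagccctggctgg
Serpina3f: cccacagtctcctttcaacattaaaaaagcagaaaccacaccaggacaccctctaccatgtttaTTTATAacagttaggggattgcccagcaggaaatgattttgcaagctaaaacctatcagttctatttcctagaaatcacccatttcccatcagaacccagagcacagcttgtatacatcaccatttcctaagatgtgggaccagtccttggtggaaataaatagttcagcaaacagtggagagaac
Hddc3: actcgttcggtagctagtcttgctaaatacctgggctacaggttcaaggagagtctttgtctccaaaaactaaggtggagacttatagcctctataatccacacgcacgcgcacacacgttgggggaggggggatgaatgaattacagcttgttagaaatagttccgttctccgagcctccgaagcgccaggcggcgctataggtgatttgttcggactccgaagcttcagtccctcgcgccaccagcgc
The windows are chr2:144550860-144551109, minus strand for Rbbp9, chr11:43425982-43426231, minus strand for Pttg1, chr12:104214294-104214543, plus strand for Serpina3f and chr7:80342887-80343136, plus strand for Hddc3. Rbbp9 has an NF-Y match and 3 CpG pairs, and Serpina3f a TATA match and no CpG pair. Pttg1 and Hddc3 have none of the 3 motifs in these windows, with 20 and 17 CpG pairs. Over 27025 promoters of the same length, 13% hold the TATA match, 34.5% the NF-Y match and 32.9% the Sp1 match. These promoters leave out 1 chromosome and include genes not tested on the arrays. Of the 74 genes, 61 had a promoter among these, and 8.2%, 52.5% and 59% of the 61 held the 3 matches. The 61 had a median of 12 CpG pairs, against 6 over the 27025, and the difference in shares was not tested.

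Several other genes of the set are neighbours or relatives; Nat8f6, Trim34a, Trim25 and Igtp lie outside the naming rule and were chosen after their values were seen. Nat8f4, Nat8f5 and Nat8f6, N-acetyltransferases that lie close together in the genome, were all lower in DBA controls 2+4 and 3. Nat8f4 was at -1.52, -1.25 and -0.83 in the C57 controls, -0.80 in DBA control 1, and -4.38 and -4.33 in DBA controls 2+4 and 3. Nat8f5 and Nat8f6, which are direct neighbours, differed by -2.87 and -1.20. Nat8f6 was at -4.86 to -4.54 in the C57 controls and at -3.53 in DBA control 1, which thus lay beyond C57. Its level was -5.36 and -6.44 in DBA controls 2+4 and 3, and it was well above background on 2 of DBA arrays 2 to 4. As labelled, Nat8f6 was not called in the mPFC or the NAc (limma adjusted p = 0.574 and 0.958). As these genes are a family of close copies, their probes may share targets. Alad and Hdhd3, also neighbours, were both higher: Alad, the second enzyme of haem synthesis, was at 0.27, 0.34 and 0.51 in the C57 controls and 0.63 in DBA control 1, against 2.44 and 2.72 in DBA controls 2+4 and 3. Hdhd3, a phosphatase-like protein, was at 0.27 to 0.50 in the C57 controls, -0.08 in DBA control 1, and 2.01 and 1.94 in DBA controls 2+4 and 3. DBA mice are known to carry a duplication that covers Alad. Among interferon-related genes, Trim34a, Trim25 and Igtp differed by -1.79, -1.13 and -1.13.

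Genes of the cytoskeleton and cell division were also among the set. Map1b, a microtubule protein of growing axons, was at 1.52 to 1.69 in the C57 controls and 1.66 in DBA control 1, and at 4.27 in both DBA controls 2+4 and 3. Another Map1b probe differed by -0.46, in the opposite direction. Spdl1, a kinetochore adaptor of dynein, and Sfi1, a centrosome protein, were higher by 3.35 and 3.25, and another Sfi1 probe differed by 0.10. Among the lower genes were also Sbsn, an epidermal secreted protein, at -3.32, and Tmc7, a transmembrane channel-like protein, at -2.78; another Tmc7 probe, not above background in C57, differed by 0.97, in the opposite direction. Tnfaip6, a hyaluronan-binding protein induced by inflammation, differed by -2.49, and its other probes by -3.10 and 0.53. Ocel1 and Cuedc1 differed by 2.76 and 2.39. Of the 74 genes, 26 had 30 other probes: 20 of these 30 pointed the same way, and 13 showed at least 50% of the difference. Of the 16 genes of this kind that the naming rule chose, 8 had 9 other probes: 5 of the 9 pointed the same way, and 2 showed at least 50% of the difference. After normexp correction the 14 of these genes that are reported were all still called between DBA controls 2+4 and 3 and C57.

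**Figure D3:**
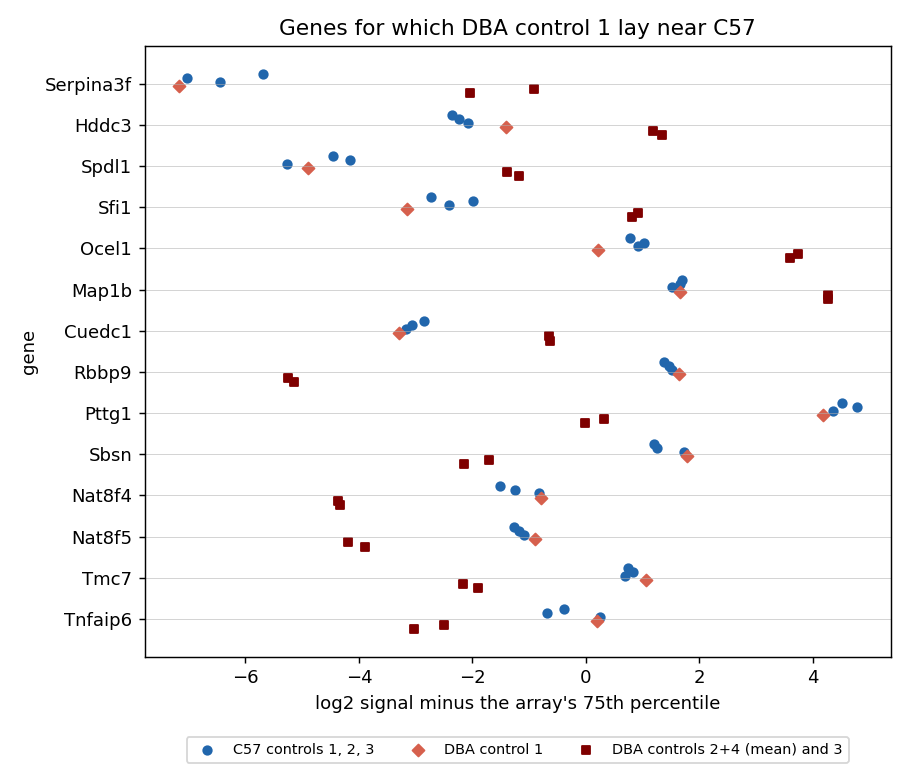
Levels (log2 signal minus the 75th percentile of the array) of 14 named genes of large difference for which DBA control 1 lay near C57; circles are C57 controls 1 to 3, diamonds DBA control 1 and squares DBA controls 2+4 and 3. Diamonds sit with the circles, for example at 1.64 for Rbbp9 against -5.25 and -5.14 for the squares.

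At the other end, 1576 features, 676 of them named, were near the slide-mates and were also called between DBA control 1 and C57 in the same direction. They too were chosen by these values. Cox17, the copper chaperone of cytochrome c oxidase, was at -1.17, -1.16 and -0.81 in the C57 controls and at -4.95, -4.43 and -4.74 in DBA controls 1, 2+4 and 3. All 3 DBA samples were far below C57 and close to each other, with a labelled difference of -3.66 ± 0.18 (SE); after normexp it was -2.44. Bex6, a small brain-expressed X-linked family protein, was at -5.15 to -3.62 in the C57 controls and at -7.34, -7.65 and -8.13 in DBA controls 1, 2+4 and 3, where it was not well above background. It was at least 3.15-fold lower in DBA. Abhd3 and Lpcat4, which act on phospholipids, and Arhgap19, a GTPase-activating protein, were likewise not above background in any DBA sample. They were at least 6.15-fold, 4.14-fold and 2.63-fold lower. These bounds hold for the signal scale used here. After normexp the log2 differences without DBA control 1 were -0.86 for Bex6, -1.04 for Abhd3, -0.93 for Lpcat4 and -0.72 for Arhgap19. Adam2, a sperm surface protein, was at -7.76, -7.81 and -7.73 in the C57 controls, below background, and at -4.09, -4.95 and -4.71 in DBA controls 1, 2+4 and 3. On this signal scale it was at least 2.28-fold higher in DBA. That bound did not hold after normexp, where its labelled log2 difference was 0.046. The odorant receptors Olfr690 and Olfr497, the lipoxygenase Alox12e and the hair keratin-associated Krtap31-2 were of the same kind. Their C57 levels were -8.10 to -5.59, not above background, and their DBA levels -4.97 to -2.76. Such genes are known from testis, nose, skin or hair. After normexp the differences without DBA control 1 of these 5 higher genes were 0.08 to 0.65 and none was called, with adjusted p of 0.278 to 0.934. Of the 10 named genes near the slide-mates, 2 were called after normexp, Cox17 and Abhd3, and all 10 after quantile normalization.

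**Figure D4:**
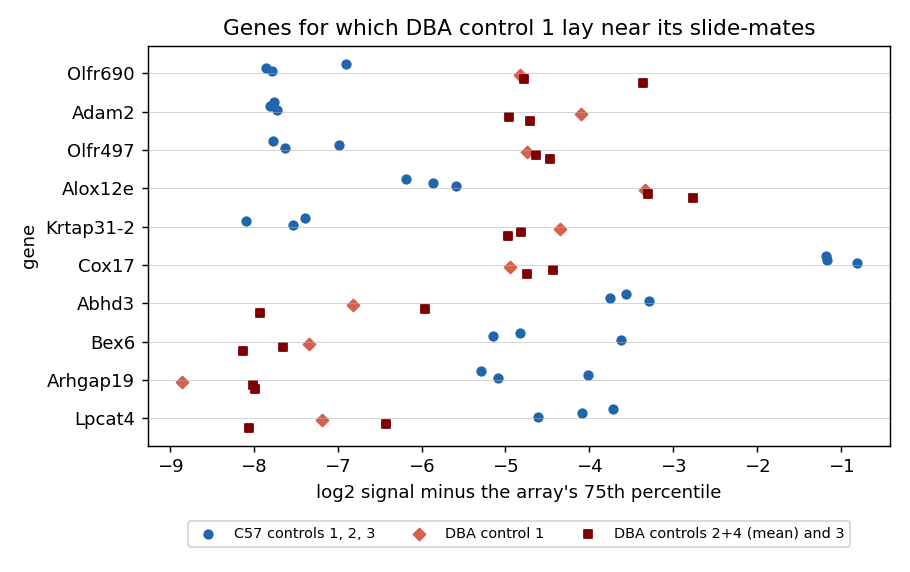
Levels (log2 signal minus the 75th percentile of the array) of the 10 named genes of largest difference for which DBA control 1 lay near its slide-mates, with the symbols as circles for C57 controls, diamonds for DBA control 1 and squares for DBA controls 2+4 and 3. Diamonds sit with the squares, for example at -4.95 for Cox17 against -4.43 and -4.74, and all 5 higher genes lie below -5 in C57.

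Gene lists chosen for this tissue were read by their counts in the comparison without DBA control 1, beside the 21.6% of all features that it called and the median of all features, 0.09. Counts in the mPFC as labelled stand beside 24.4% of all features. Of 19 measured genes with reported C57 and DBA variants, 11 were called, 5 higher and 6 lower; 8 of the 11 were near C57 and 0 near the slide-mates. Gpnmb, a melanosomal glycoprotein that carries a stop codon in DBA mice, was at -3.17, -3.29 and -3.60 in the C57 controls and -3.24 in DBA control 1. It was not above background in DBA controls 2+4 and 3 (-8.19 and -8.18), at least 5.86-fold lower than in C57 on this signal scale. After normexp its log2 difference without DBA control 1 was -1.41. Gabra2, a GABA-A receptor subunit whose expression is lowered by an intronic deletion in C57BL/6J mice, was at 1.57, 1.64 and 1.87 in the C57 controls, 1.13 in DBA control 1, and 2.52 and 2.90 in DBA controls 2+4 and 3. Glo1, the glyoxalase that is duplicated in DBA mice, was at 3.25 to 3.43 in C57 and at 4.08 in both DBA controls 2+4 and 3, and its adjusted p of 0.0592 missed the threshold. These 3 genes made up the strain score by which DBA control 1 was set apart. Their place is therefore a description, also where they count among the 8 near C57. Wdfy1, an endosomal adaptor, differed by 1.53 ± 0.32 (SE, limma adjusted p = 0.00201), with 1 of 3 other probes in the same direction. The natural killer cell receptor Cd244a was lower by a difference of -1.51 ± 0.21 (limma adjusted p = 9.25e-05) and lay at 0.70 on the way to the slide-mates.

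Serpina genes, a cluster of secreted protease inhibitors, were called in 1 direction in the mPFC. Of 14 measured members, 9 were called higher and 0 lower, 6 of them near C57 and 1 near the slide-mates, with a median difference of 2.07 that was 0.83 after normexp and 1.94 after quantile normalization. In the NAc as labelled, 6 were called higher and 3 lower. Serpina1a, an alpha-1-antitrypsin, was at -4.35, -4.34 and -4.31 in the C57 controls, -3.39 in DBA control 1, and -0.49 and 0.11 in DBA controls 2+4 and 3. Serpina3n, the antichymotrypsin of reactive astrocytes, was at -2.40 to -1.88 in C57, -1.61 in DBA control 1, and 0.52 and 0.75 in DBA controls 2+4 and 3, a difference of 2.74 ± 0.54 (SE, limma adjusted p = 0.00143). Serpina1 genes are near-identical copies, so their probes may read each other's RNA.

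Major histocompatibility genes, which differ in haplotype between the strains, had 28 measured members. As labelled, 8 were called higher and 0 lower, beside 16% and 8.41% of all features. Without DBA control 1 the counts were 3 and 2, beside 14.2% and 7.42%. In that comparison the list median of 0.20 was -0.10 after normexp. H2-DMa, the peptide-exchange chaperone of class II molecules, was at -0.74 to -0.32 in C57, -0.13 in DBA control 1, and 0.59 and 1.00 in DBA controls 2+4 and 3, a difference of 1.35 ± 0.27 (SE, limma adjusted p = 0.00137). H2-K1, a class I molecule, was at 2.42 to 2.60 in C57, 2.44 in DBA control 1, and 1.63 and 1.93 in DBA controls 2+4 and 3 (adjusted p = 0.00909), and another H2-K1 probe differed by 0.14. Polymorphic probes of these genes can read sequence as level. Trim12a, a member of the antiviral Trim5 family, was at -1.31 to -1.05 in C57 and -0.74 in DBA control 1, and was not above background in DBA controls 2+4 and 3 (-6.24 and -6.80), at least 25.7-fold lower. After normexp the log2 difference of this probe without DBA control 1 was -2.47. Another Trim12a probe differed by -3.15 before normexp.

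Genes of neurotransmission were read against the same 21.6%. Without DBA control 1, 3 of 17 dopamine genes, 3 of 16 GABA receptor genes, 2 of 23 glutamate receptor genes, 4 of 22 monoamine receptor genes, 1 of 15 opioid and endocannabinoid genes and 6 of 33 potassium channel genes were called. Of the 6 potassium channel genes, 5 were near the slide-mates. Kcna3, a voltage-gated channel also known from microglia and T cells, was at -2.87 to -2.38 in C57 and at -1.62, -1.43 and -1.45 in DBA controls 1, 2+4 and 3. The sixth, Kcnj9, a G-protein-gated inward rectifier, was near C57: it was at 0.80 to 1.81 in C57, 1.46 in DBA control 1, and 2.91 and 3.14 in DBA controls 2+4 and 3. Cnr2, the peripheral cannabinoid receptor, was at 3.74, 4.24 and 4.05 in C57 and at 2.57, 2.51 and 2.35 in DBA controls 1, 2+4 and 3, a labelled difference of -1.53 ± 0.14 (SE, limma adjusted p = 2.67e-07). Adra2b, a receptor for noradrenaline and adrenaline, was at 1.03 to 1.33 in C57 and at -0.35, -0.18 and -0.25 in DBA controls 1, 2+4 and 3. Gria2, the AMPA receptor subunit that limits calcium entry, was at 1.76 to 2.73 in C57, 1.58 in DBA control 1, and 0.94 and 0.63 in DBA controls 2+4 and 3 (adjusted p = 0.0128), and another probe differed by -0.03.

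Cell-type marker lists differed between single samples. All 23 cortical excitatory markers were measured and 0 were called by limma in either comparison (0 as labelled and 1 without DBA control 1 at an unadjusted p under 0.05); their mean level was 0.65 in C57 control 3 and 1.41 to 1.53 in the other mPFC controls. The striatal list had a median difference of -1.58 without DBA control 1 and -0.58 when C57 control 3 was also left out; 1 of its 25 genes, the transcription factor Meis2, was called lower. Of the 22 oligodendrocyte markers, 5 were called lower (Mal, Mobp, Aspa, Sox10 and Ermn), 4 of them near C57; as labelled, 1 of the 22 was called. After normexp Mobp (adjusted p = 0.0936) and Sox10 (0.0846) were no longer called, and after quantile normalization Mobp (0.0632) was not. Mal, a myelin proteolipid, was at 3.97, 4.21 and 4.97 in the C57 controls, 4.85 in DBA control 1, and 2.76 and 2.04 in DBA controls 2+4 and 3. The oligodendrocyte list averaged 1.96 to 2.39 in C57, 2.69 in DBA control 1, and 1.69 and 1.42 in DBA controls 2+4 and 3; the part of tissue composition in this was not tested. Among 18 astrocyte markers 5 were called lower, including Glul, glutamine synthetase (-1.21 ± 0.17, limma adjusted p = 8.99e-05), and among 20 microglial markers 3, including the complement gene C1qc (-1.26 ± 0.19, adjusted p = 0.000157). Vascular and meningeal markers had 2 of 26 called higher, the endothelial genes Pecam1 and Tek, both near the slide-mates. Interneuron and immediate early lists had 1 of 21 and 2 of 25 called. Choroid plexus had 0 of 10 called by limma, and 2 at an unadjusted p under 0.05.

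Metabolic lists were mixed. Of 33 detoxification genes, 5 were called higher and 4 lower. Gsta4, a glutathione transferase that clears lipid aldehydes, was at 0.10 to 0.22 in C57, 0.22 in DBA control 1, and 1.05 and 1.49 in DBA controls 2+4 and 3. Gstz1, of tyrosine breakdown, was at 2.36 to 2.41 in C57 and 2.34 in DBA control 1, against 3.07 and 3.11 in DBA controls 2+4 and 3. Oxidative phosphorylation had 4 of 42 genes higher and 1 lower, but 3 higher and 6 lower as labelled. Cox5b, a subunit of cytochrome c oxidase, differed by -0.71 ± 0.15 without DBA control 1 (SE, limma adjusted p = 0.00274). Interferon and complement genes had 1 higher and 2 lower of 27. In the Xlr family of X-linked lymphocyte-regulated genes 1 of 6 measured members was called. Xlr4a and Xlr4b, of the gene group that the study set out to examine, were not called: Xlr4a was at -2.41, -4.58 and -2.41 in the C57 controls, -2.95 in DBA control 1, and -5.47 and -4.69 in DBA controls 2+4 and 3 (limma adjusted p = 0.071 without DBA control 1). Xlr4b ranged from -5.04 to -3.02 in C57 and from -4.55 to -2.98 in DBA, so the groups overlapped. These genes are near-identical copies, whose probes may read each other. Xlr5a was not above background in C57 (-6.54 to -6.03) and was at -3.10, -3.84 and -3.30 in DBA controls 1, 2+4 and 3, near the slide-mates; its labelled difference of 2.81 was 0.49 after normexp, with an adjusted p of 0.324.

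The NAc controls, on 2 other slides, did not enter the mPFC differences by which the genes were chosen. They did enter the spread of the shared fit, the background filter and the choice of the brightest probe. The NAc calls are therefore not independent of the choice of mPFC genes. In the NAc, the sample labelled DBA NAc control 4 had the C57 pattern of strain markers (a score of 7.26, against 11.78 to 12.43 in DBA NAc controls 1 to 3) with Xist at 1.44, so it was set apart in the same way, after its values were seen. DBA NAc controls 1 to 3 differed from the C57 NAc controls, 4 arrays averaged to 2 samples, in 5853 features (19.4%), 7.78% higher and 11.6% lower. C57 NAc control 1, the mean of 2 arrays, lacked striatal markers, and leaving it out took the NAc count with all samples as labelled from 5187 (17.2%; 6.08% higher and 11.1% lower) to 855. Of the 123 features near C57 in the mPFC and also called within the DBA slide, 64 (52%) were called in the NAc in the same direction. In the opposite direction 1 was called. Of all 30165 features, 14.7% were called in the direction of their mPFC difference and 4.73% against it. In 52 of the 64, DBA NAc control 4 lay near C57, and in 0 near its slide-mates. Among all 4427 features called in the direction of their mPFC difference, DBA NAc control 4 lay near C57 in 24.6% and near its slide-mates in 40.2%. Of the 1576 features near the slide-mates and also called between DBA control 1 and C57, 430 (27.3%) were called in the same direction. In the opposite direction 89 were called. Among the 430, DBA NAc control 4 lay near C57 in 27 (6.28%) and near its slide-mates in 274 (63.7%). Of all 1130 features near C57, 502 (44.4%) were called in the same direction, with DBA NAc control 4 near C57 in 66.7% of the 502. Of all 3365 near the slide-mates, 21.8% were. The median size of the mPFC difference was 1.65 in the 123, 1.11 in the 1130 and 0.41 in all features. The part of size in these shares was not tested.

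Gene by gene, 10 of the 14 named genes near C57 were called the same way in the NAc, and DBA NAc control 4 was near C57 in all 10. Rbbp9 averaged 1.32 in the C57 NAc controls and -4.56 in DBA NAc controls 1 to 3, with 1.48 in DBA NAc control 4 (difference -5.88 ± 1.11 SE, limma adjusted p = 0.00089). Pttg1 averaged 4.48, 0.88 and 3.77 in the same 3 places, and Hddc3 -1.86, 1.30 and -1.15. The 4 not called, Sbsn, Nat8f5, Spdl1 and Tnfaip6, had differences of -1.48, -1.22, 0.39 and -0.41. Stab2 averaged -4.48 in C57 and 2.51 in DBA NAc controls 1 to 3, with -3.88 in DBA NAc control 4 (adjusted p = 8.64e-06). Of the 10 named genes near the slide-mates, all 5 lower ones were called in the NAc, and for 4 of them DBA NAc control 4 again lay with its slide-mates: Cox17 averaged -1.39 in C57, -4.78 in DBA NAc controls 1 to 3 and -4.75 in DBA NAc control 4. Bex6 averaged -4.77, -8.30 and -8.27. Of the 5 higher ones, 1 was called, Alox12e (adjusted p = 0.000303). Adam2, Olfr497 and Krtap31-2 were well above background on 0 of the NAc control arrays, and Olfr690 on 1 of 4 C57 and 2 of 4 DBA arrays, so no NAc difference is given for them. The test of the strain difference between the regions, with samples as labelled, called 2963 features (9.82%), 2568 (8.51%) with a more positive DBA minus C57 difference in the mPFC and 395 (1.31%) with a more negative one; it called 1 after normexp and 1143 without C57 NAc control 1.

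**Figure D5:**
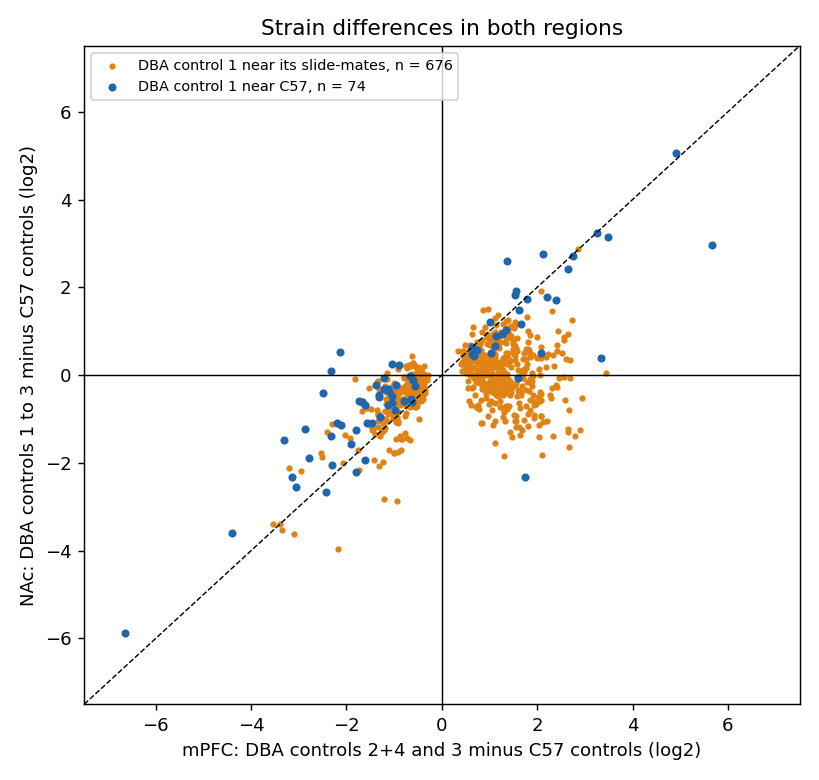
DBA minus C57 log2 differences of named genes chosen in the mPFC. The horizontal axis is the mPFC without DBA control 1, the vertical axis the NAc without DBA NAc control 4. Of these genes, 74 were near C57 and also called within the DBA slide. Another 676 were near the slide-mates and also called between DBA control 1 and C57. Of the 74, 33 (44.6%) were called in the NAc in the same direction and 0 in the opposite one. Of the 676, 204 (30.2%) were called in the same direction and 29 (4.29%) in the opposite one. Over all 16693 named genes these shares were 13.7% and 3.67%. Without the second call, 42.3% of the 636 named genes near C57 were called in the same direction. Of the 1510 named genes near the slide-mates, 24.3% were.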

How the data were processed

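The authors deposited, per the file headers, 1 scanner file per array with 62976 spots, whose intensity (background-subtracted signal) came from Agilent Feature Extraction 10.7.3.1; a deposited series matrix gives log2 values of 30067 probes. The submitters' processing notes also name limma, with no version. In 29 of 31 cases the values of a matrix column matched a scanner file deposited under a different sample, and arrays were assigned by their column. Signals were averaged by median over spots, put on the log2 scale and set against the 75th percentile of the array, the level that all matrix columns share. Probes needed 3 arrays of some group above background, which left 43415 of 55681, and the brightest probe stood for each named gene. limma 3.58.1 (lmFit, eBayes with trend) in R 4.3.3 fitted 8 groups on 27 samples, after 4 pairs of near-identical arrays (spread ratio under 3, a limit set after the ratios were seen) had been averaged. Calls were Benjamini-Hochberg adjusted p under 0.05 over 30165 features. Scripts were tested on simulated data. Named genes were the largest differences by a fixed rule: 8 each way as labelled, 8 each way near C57, 5 each way near the slide-mates, and up to 6 called members of each of 24 lists; some of these genes are not reported here. Members and lists were chosen with earlier results of these data known. The planned normexp correction used the median spot signal (offset 50), since the mean is not in the scanner files. The number of arrays limits the precision. Figures used Python 3.11.15 and matplotlib 3.10.9. Protein and probe sequences were not used here.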

Additional observations from a re-analysis of the deposited data

Results flagged for a closer look

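Among the DBA NAc controls, DBA NAc control 4 lay far from the other 3 in 11 of 34 named genes checked. Chance flags about 1 in 20 groups, but these genes were chosen for their strain difference and are not independent, so that rate is no yardstick for this count. It stood below the others in Stab2 (-3.88 against 2.12 to 2.76), Mael (-8.46 against -3.16 to -2.86), Ccr6 (-5.38 against -0.0017 to 0.46), Serpina3f (-5.92 against -1.45 to -0.93), Hddc3 (-1.15 against 1.23 to 1.38), Sfi1 (-1.41 against 1.27 to 1.55), Ocel1 (0.069 against 2.84 to 3.26) and Map1b (2.07 against 4.22 to 4.36). It stood above them in Rbbp9 (1.48 against -4.64 to -4.52), Acyp2 (1.32 against -3.85 to -3.53) and Nat8f4 (-0.72 against -3.39 to -2.98). Its strain markers were those of C57, as given above.

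The DBA minus C57 difference was larger in the mPFC than in the NAc, by limma's interaction test, in 5 named genes. The difference of differences was 3.07 for Syt10, 3.12 for Olfr690, 3.43 for Adam2, 3.94 for Olfr497 and 4.46 for Krtap31-2. Apart from Syt10 these genes were not well above background on any C57 mPFC array, and Adam2, Olfr497 and Krtap31-2 were not on any NAc control array either, so their values compare signals near background and are no measure of a regional difference in expression. After normexp the interaction test called 1 feature in all.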

How the results depend on the processing

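The number of arrays limits the precision. With normexp on the median spot signal, called features numbered 2918 as labelled, 2768 without DBA control 1, 783 for DBA control 1 against C57, 2482 in the NAc and 1 for the interaction. Quantile normalization gave 1846 for the interaction and 356 within the DBA slide, and keeping the deposited value table's probes gave an interaction count of 1712. Fitting the compared groups alone gave 1437 in the NAc and 404 within the DBA slide. Array weights gave 13056, 12971, 7612 and 3392 as labelled, without DBA control 1, for DBA control 1 against C57 and within the DBA slide. Without averaging, the NAc had 9775, the interaction 5608 and the DBA slide 569. Without the 6 samples in doubt the NAc had 2266 and the interaction 425. With scanner files as listed, the labelled comparison gave 251 and the NAc 1969. The single placement limit of 0.5 gave 30.3%. The replicate numbers did not pair the samples (correlations -0.11, 0.14 and -0.04); a replicate block gave 66 within the DBA slide and moved none of the 5 other counts by over 1.5 times. Leaving out 1 sample at a time gave 4344 to 6521 as labelled, 1993 to 5275 without DBA control 1, 1189 to 1595 for DBA control 1 against C57, 7 to 9 within the DBA slide, 855 to 6729 in the NAc and 1143 to 4967 for the interaction. The share near C57 was 17.6%, and near the slide-mates 49.9%, without C57 control 3. Calls without DBA control 1 were 65.6% higher as reported and 48.5% after normexp; those of DBA control 1 against C57 were 54.4% and 18.9%. Of 1349 gene values under the alternatives, 983 kept direction and call, 360 lost the call, 2 gained it and 4 reversed: H2-M5 after normexp (-0.32 as labelled, -0.12 without DBA control 1), Irf7 after normexp (-0.11) and Xist without DBA control 1, which was 0.030 when DBA control 2+4 was also left out (-0.29 when DBA control 3 was). The causes were not tested.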
